A study of Mus musculus and Rattus norvegicus with 28 samples.

Results

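The natriuretic peptide system of perinatal heart cells was described here through 6 genes: Nppa and Nppb, which encode the peptide hormones ANP and BNP, Corin, and the receptor genes Npr1, Npr2 and Npr3. Members were taken by gene symbol, with no measured value in the rule, although they were chosen with earlier results of these data known. They were 6 of the 55450 genes listed for mouse and 6 of the 32623 listed for rat. All 6 passed the filter on low values in both species, which asked for 1 FPKM or more in 2 or more mouse libraries or in 3 or more rat libraries, as did 13979 mouse and 13625 rat genes in all. FPKM is a count of sequenced fragments scaled to transcript length and library depth, so that levels of different genes can be compared. Gene values were sums over the transcripts of a gene.

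Heart muscle cells store ANP and BNP as precursors, and corin, a protease anchored in the cell membrane, cleaves the ANP precursor into the active hormone. ANP and BNP bind NPR-A, encoded by Npr1, a receptor that makes cyclic GMP inside the target cell and by that route relaxes vessels and promotes salt excretion. NPR-B, encoded by Npr2, makes cyclic GMP in response to CNP, the product of Nppc, while NPR-C, encoded by Npr3, removes the peptides from the circulation. Ventricular Nppa and Nppb are known as fetal genes that fall after birth and return under load, and both are widely used as markers of cardiac stress.

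The study profiled cardiomyocytes around birth by RNA-seq and by ATAC-seq, which marks open chromatin. Mouse cells came from left ventricles of wild-type C57BL/6 animals of both sexes at embryonic day 18.5 (E18.5) and postnatal days 1, 3 and 7 (P1, P3, P7), with 2 RNA-seq and 2 ATAC-seq libraries at each of the 4 stages. Ventricles were digested in trypsin and then in collagenase, and cells that attached to uncoated dishes were discarded to deplete non-muscle cells, after which the mouse cells were used without culture. Rat cardiomyocytes from P1 Sprague Dawley pups were plated and, a day later, treated with 100 nM trichostatin A (TSA), an inhibitor of histone deacetylases, or with its solvent DMSO, with 3 RNA-seq libraries each. No group carried a genetic change, and the 6 chromatin-contact libraries of the series were not analysed here.

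RNA-seq depth, as bases aligned to transcripts, was 4.40 to 5.63 gigabases in the mouse libraries and 4.23 to 5.77 gigabases in the rat libraries. The labelled cell type was checked against 12 cardiomyocyte markers, all of which were detected in mouse. Their summed FPKM was 23824 and 29485 at E18.5, then 10722 and 17056 at P1, then 7457 and 6314 at P3, and finally 1852 and 763 at P7, and 12 of 12 were called lower at P7 than at E18.5. Over the same interval the sum of 12 fibroblast markers went from 607 and 613 to 3148 and 3887, with 10 of 12 called higher. Red blood cell genes (7 of 7 called lower at P1, P3 and P7) held 5.47% and 6.42% of the TPM total, a share of transcripts, at E18.5 and at most 0.00905% later. These marker levels moved with stage, and their part in the results below was not tested beyond the values given. In bulk samples, fewer cells of a type and less RNA per cell cannot be told apart. The study stained cells for cardiac troponin T and described the P7 isolates as highly pure. Nothing in the labels says that replicates came from separate animals, so p-values measure only the spread between these libraries. In the rat series both libraries numbered 3 stood apart, which is described with the rat values.

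In the mm10 annotation of the files, Nppb covers chr4:147985788-147987205 and Nppa chr4:148000722-148002079. They lie next to each other in the same orientation, on the plus strand, 13.5 kb from the end of Nppb to the start of Nppa. The 250 bases before each annotated start are shown because open chromatin was called at the Nppb promoter in nearly every library and rarely at Nppa, although Nppa was the more abundant transcript. They come from the mm10 genome, plus strand, at chr4:147985538-147985787 for Nppb and chr4:148000472-148000721 for Nppa. Letters in capitals mark matches to 9 motifs searched on both strands.
Nppb: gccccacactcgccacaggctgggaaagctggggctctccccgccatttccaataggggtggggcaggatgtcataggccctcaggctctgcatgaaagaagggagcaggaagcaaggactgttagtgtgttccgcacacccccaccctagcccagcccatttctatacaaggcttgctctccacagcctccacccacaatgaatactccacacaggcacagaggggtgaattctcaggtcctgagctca
Nppa: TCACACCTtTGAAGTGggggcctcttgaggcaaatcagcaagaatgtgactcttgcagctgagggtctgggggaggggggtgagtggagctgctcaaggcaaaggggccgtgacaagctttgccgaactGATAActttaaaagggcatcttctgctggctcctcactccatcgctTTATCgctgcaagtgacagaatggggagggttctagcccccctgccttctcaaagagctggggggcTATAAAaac

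The Nppa stretch held a match to the T-box motif AGGTGTGA on the reverse strand at -250 to -243 from the start. An NKX motif, TNAAGTG, stood beside it at -241 to -235. GATAA, the core bound by GATA factors, occurred at -121 to -117 and, reversed, at -75 to -71. The letters of the TATA box motif, TATAAA, stood at -9 to -4. None of these 5 matches overlapped another. Of 32851 RefSeq mouse promoters (GRCm38.p6), searched over the 250 bases before the start, 1.12% held AGGTGTGA, 10.1% TNAAGTG, 22.6% GATAA and 12.4% TATAAA. No match to the 9 motifs lay in the Nppb stretch, where the other motifs searched were AP-1 (TGANTCA, in 6.75% of promoters), TEAD (CATTCC, 12.6%), CRE (TGACGT, 6.47%), MEF2 (2.92%) and the CArG box (1.47%). The Nppb start used is that of the GENCODE annotation of the files, and RefSeq places it elsewhere, while the promoter shares rest on RefSeq starts. Another start would shift the 250 bases searched, so the lack of matches holds for the printed stretch only. Positions at Nppa likewise count from its annotated start, which was not tested. A match is a run of letters and was not tested as a binding site. The GATA motif was shortened and the TATA box added after the letters had been read.

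Nppa was among the most abundant transcripts of these cells, with a peak at P1 and the lowest values at P7. Its FPKM was 860 and 1560 at E18.5, 1719 and 2249 on P1, 1012 and 407 on P3, and 388 and 238 on P7. Ranked among all genes of a library, Nppa stood between places 12 and 65 at E18.5 and P1 and at places 176 and 267 at P7. The order of group means was P1 (1984 ± 375), E18.5 (1210 ± 495), P3 (709 ± 428) and P7 (313 ± 106; SD, n = 2). The E18.5 and P3 libraries overlapped, while the other neighbours in that order did not. Nppa fell from P1 to P7 by 2.69 on the log2 scale (SE 0.45, limma adjusted p = 0.00532) and from E18.5 to P7 by 1.93 (adjusted p = 0.00736), the latter no longer called without E18.5 replicate 2 (adjusted p = 0.0665). The P1 mean was 1.64 times that at E18.5, a log2 difference of 0.76 that did not pass the test (adjusted p = 0.209). Fold changes here are on the log2(FPKM + 1) scale, and a gene was called where the Benjamini-Hochberg adjusted p was below 0.05 and the log2 difference at least 1.

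Nppb followed another order, highest before birth and lower at each later stage. Its FPKM was 295 and 450 at E18.5, 188 and 228 in the P1 pair, 132 and 40.9 in the P3 pair and 37.9 and 14.1 in the P7 pair. The stages did not overlap in these libraries, but the P3 pair spanned a wide range. Group means were 372 ± 109, 208 ± 28.3, 86.3 ± 64.2 and 26.0 ± 16.8 FPKM (SD, n = 2). Nppb fell from E18.5 to P3 by 2.29 on the log2 scale (SE 0.57, limma adjusted p = 0.0113) and to P7 by 3.91 (adjusted p = 0.000675), leaving 0.0698 of the E18.5 mean. The P3 call was lost without P3 replicate 2 (-1.46) or E18.5 replicate 2 (-1.99). From P1 to P7 it fell by 3.10 (adjusted p = 0.00777). Neighbouring stages did not pass the test, with differences of -0.81 from E18.5 to P1 (adjusted p = 0.283), -1.48 from P1 to P3 (0.384) and -1.62 from P3 to P7 (0.169).

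The balance between both transcripts therefore shifted. On the FPKM scale, which allows for length, Nppa exceeded Nppb 2.92 and 3.47 times at E18.5 and 9.16 and 9.88 times at P1. The ratio was 7.68 and 9.94 at P3 and 10.2 and 16.8 at P7, so every postnatal library lay above both E18.5 libraries. This ratio was not among the tests run.

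Corin, the activating protease (chr5:72300025-72504473, minus strand), showed the largest loss of the 6 genes by the ratio of P7 to E18.5 means. Its FPKM was 10.7 and 16.1 at E18.5, then 4.95 and 8.29 at P1, then 3.36 and 2.75 at P3, and finally 1.05 and 0.274 at P7, with no overlap between stages. Means were 13.4 ± 3.80, 6.62 ± 2.36, 3.05 ± 0.431 and 0.664 ± 0.551 (SD, n = 2), so that P7 retained 0.0495 of the E18.5 level. Corin fell by 1.81 on the log2 scale from E18.5 to P3 (SE 0.31, limma adjusted p = 0.00209), by 3.13 from E18.5 to P7 (9.90e-05) and by 2.20 from P1 to P7 (0.00262). From E18.5 to P1 the difference of -0.93 had an adjusted p of 0.0430 and stayed under the fold limit. At P7 the Corin values rest on little signal: in replicate 1 the main transcript stood at 0.00616 FPKM, and a transcript with another start carried 92.8% of the gene's value.

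The receptors did not move in parallel. Npr1, the receptor for ANP and BNP (chr3:90450591-90465866, minus strand), had an FPKM of 8.26 and 6.28 at E18.5, 1.98 and 2.66 on P1, 3.57 and 4.05 on P3, and 3.10 and 2.78 on P7. The E18.5 libraries were the highest, and the others stood in the order P3, P7, P1 without overlap. Npr1 was called lower at P1 (log2 difference -1.31, SE 0.19, limma adjusted p = 0.00128) and at P7 (-1.06, adjusted p = 0.00187), the latter no longer called without E18.5 replicate 1 (-0.89) or on the TPM scale (-0.93). At P3 the difference from E18.5 was -0.77, under the fold limit (adjusted p = 0.0103), and P3 and P7 did not pass against P1 (0.54 and 0.25). In E18.5 replicate 2 a short transcript at the 3′ end made up 44.9% of the Npr1 value. The full-length transcript alone gave 6.35 and 3.18 FPKM at E18.5 and 1.58 to 3.53 later, so replicate 2 then lay below 1 of the P3 libraries.

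Npr2, the receptor for CNP (chr4:43631935-43651244, plus strand), was the only one of the 6 genes with higher means after birth than before in each comparison with E18.5. It had an FPKM of 5.16 and 7.56 at E18.5, 8.53 and 9.65 in the P1 pair, 11.9 and 14.1 in the P3 pair and 11.7 and 10.8 in the P7 pair. Differences from E18.5 were 0.47 at P1 (limma adjusted p = 0.0791), 0.94 at P3 (0.00429) and 0.76 at P7 (0.00982), all below the fold limit, so Npr2 was not called. On the TPM scale it was called at P3 (1.23) and P7 (1.05). The direction relative to all genes was the same, with 0.32, 0.78 and 0.61 after the median gene's difference was taken off. The share of the full-length transcript in the Npr2 value ran from 6.25% to 70.2%, and transcripts without the full coding length were counted in the sum.

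The balance between Npr1 and Npr2 also differed between E18.5 and the later stages. The Npr2 to Npr1 ratio in FPKM was 0.625 and 1.20 at E18.5 and 3.34 to 4.30 in the 6 postnatal libraries. Nppc, whose product binds the Npr2 receptor, was 0.847 and 1.62 FPKM at E18.5, 0.0508 in a single P1 library and listed at 0 in the other 5, and it did not pass the filter on low values.

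Npr3, the clearance receptor (chr15:11839896-11907287, minus strand), varied least. It had an FPKM of 4.50 and 4.55 at E18.5, then 3.48 and 2.56 at P1, then 4.20 and 3.14 at P3, and finally 2.97 and 2.52 at P7. P1 overlapped both P3 and P7, and E18.5 stood above all of them. The differences from E18.5 were -0.47 at P1 (limma adjusted p = 0.0824), -0.25 at P3 (0.301) and -0.56 at P7 (0.0351), and none was called.

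**Figure D1:**
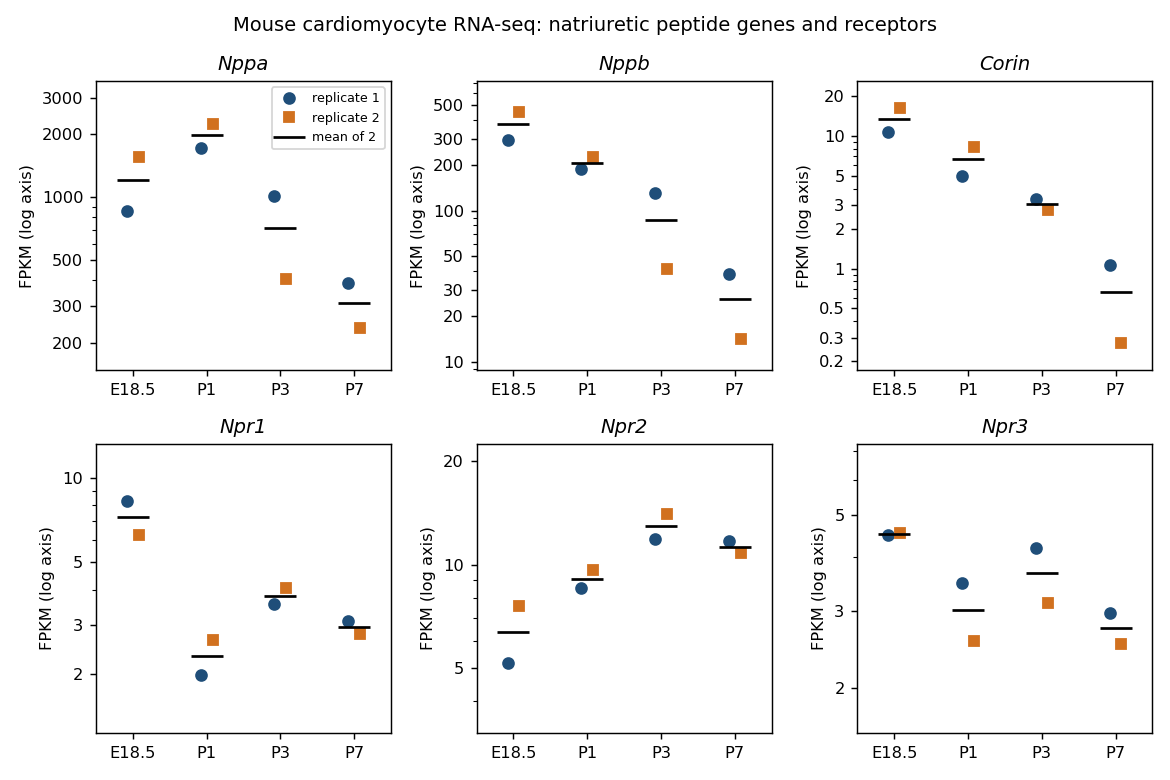
FPKM (log axis) of the 6 genes in each mouse RNA-seq library at E18.5, P1, P3 and P7. Points are libraries and bars are group means (n = 2). Nppb and Corin step down at each stage, Nppa peaks at P1 with 1719 and 2249 FPKM, and Npr2 is the only gene whose E18.5 libraries are the lowest.

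Counted together, 1 of the 6 genes was called lower at P1 than at E18.5 (Npr1), 2 at P3 (Nppb and Corin) and 4 at P7 (Nppa, Nppb, Corin and Npr1), and 0 were called higher at any stage. Of all genes tested, 6.06% were called lower and 10.1% higher for P1, 8.88% and 13% for P3, and 12.3% and 15.4% for P7. Npr2 was the gene with a higher mean and an unadjusted p under 0.05 at all 3 stages. With limma-voom on estimated reads, the members called in either direction numbered 2, 3 and 4, among them Npr2 as higher at P3 and P7. From P1 to P7, 3 of 6 were called lower (Nppa, Nppb and Corin) and 0 higher, against 5.46% lower and 3.45% higher of all genes. From P1 to P3, 0 of 6 were called by limma or by limma-voom, where 0% of all genes were called lower and 0.0143% higher. An unadjusted p under 0.05 was found for 5 of the 6 and for 11.3% of all genes. From P3 to P7, 0 of 6 were called by either tool, against 2.2% lower and 1.35% higher of all genes, and 3 had an unadjusted p under 0.05, as did 18.5% of all genes. The libraries of P7 and E18.5 did not overlap for 6 of 6 members, as for 78.3% of all genes, and nothing is read from that count. The comparisons share the E18.5, P1 or P3 libraries.

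**Figure D2:**
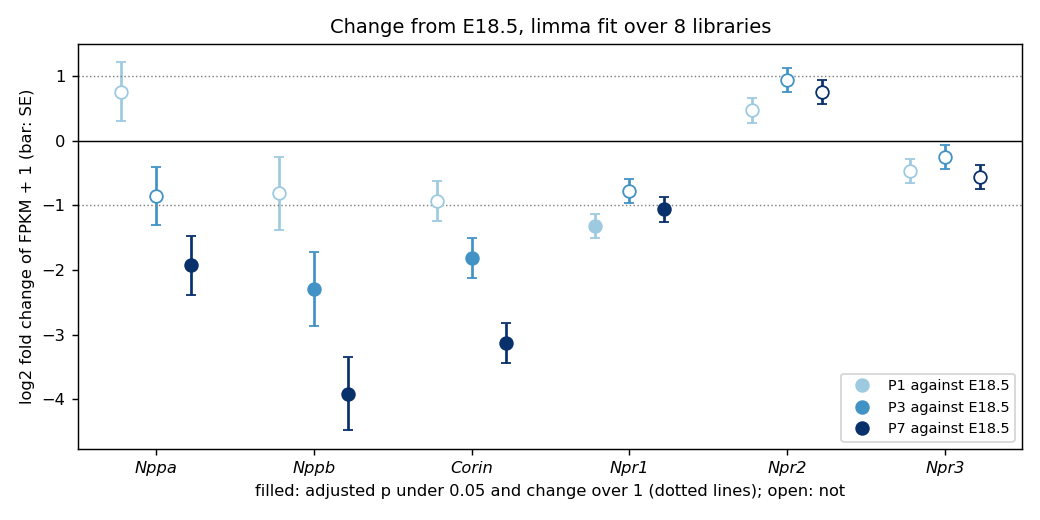
Log2 difference in FPKM + 1 from E18.5 to P1, P3 and P7 for the 6 genes, with standard errors from limma. Filled points were called and open ones were not. Corin and Nppb reach -3.13 and -3.91 at P7, Nppa is above 0 at P1 and at -1.93 at P7, and Npr2 lies above 0 throughout.

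Cardiomyocyte marker levels of the libraries moved with these values. The mean log2(FPKM + 1) of the cardiomyocyte markers was 9.54 and 9.85 at E18.5 and 5.83 and 4.71 at P7, and the median difference of the 12 was -4.02. With that mean taken off in each library, Nppa stood at 0.20 and 0.76 at E18.5, 2.52 and 2.20 on P1, 2.32 and 1.11 on P3, and 2.77 and 3.19 on P7. Relative to the markers Nppa was thus higher in every postnatal library than at E18.5, the reverse of its FPKM at P7. Nppb stood at -1.34 and -1.03 at E18.5, -0.67 and -1.10 in the P1 pair, -0.61 and -2.18 in the P3 pair and -0.55 and -0.79 in the P7 pair. Its stages overlapped except that both P7 libraries lay above both E18.5 libraries. Corin stood at -5.99 and -5.75 at E18.5 and -4.79 and -4.36 at P7. For Corin this difference depends on the 1 added before the logarithm, since its P7 values were 1.05 and 0.274 FPKM. On a scale without it, added after these values were seen, Corin per 1000 FPKM of summed markers was 0.451 and 0.546 at E18.5 and 0.569 and 0.360 at P7, so the stages overlapped. On the same scale Nppa stood at 36.1 and 52.9 at E18.5 and 209 and 312 at P7, and Nppb at 12.4 and 15.3 and at 20.5 and 18.5, without overlap for either gene. These relative values carry no test, since the markers were themselves called lower. The 12 markers include the fetal gene Myh7, whose mean was 1849 FPKM at E18.5, 55.3 at P1 and 6.35 at P7. Myh7 also belongs to the ventricular and fetal lists below, and the relative values were not recomputed without it.

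**Figure D3:**
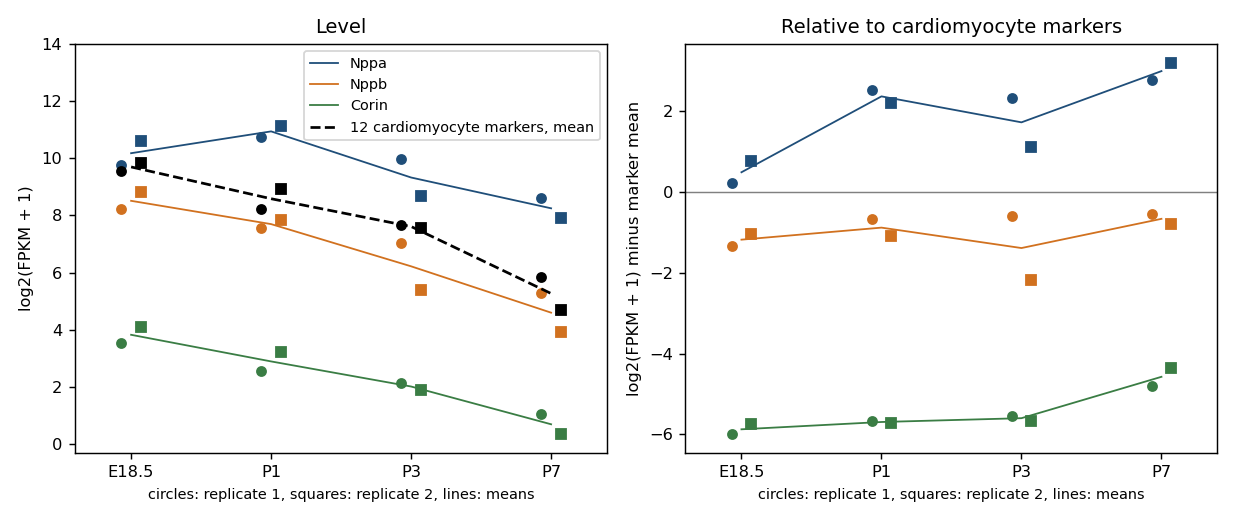
Left, log2(FPKM + 1) of Nppa, Nppb, Corin and the mean of the 12 cardiomyocyte markers in each mouse library; right, the 3 genes minus that mean, with lines through group means (n = 2). In the right panel Nppa moves from 0.20 and 0.76 at E18.5 to 2.77 and 3.19 at P7, and the position of Corin at P7 reflects the 1 added to values of 1.05 and 0.274 FPKM.

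Nppa is strongly expressed in atria, so atrial markers were read beside it. Of 6, 3 were called lower at P7 than at E18.5 (Myl7, Myl4 and Bmp10) and Nr2f2 was called higher, and their summed FPKM went from 946 and 1060 to 204 and 153. Of 4 ventricular markers, 4 were called lower, with a sum of 6924 and 8959 at E18.5 and 208 and 85.8 at P7. As means of log2(FPKM + 1), atrial markers went from 5.08 and 5.17 at E18.5 to 3.80 and 3.64 at P7. The cardiomyocyte mean went from 9.54 and 9.85 to 5.83 and 4.71, a larger fall. Like Nppa, the atrial markers were thus higher relative to cardiomyocyte markers at P7 than at E18.5. Their part in the Nppa values was not tested.

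The receptors are also expressed outside muscle cells, Npr1 and Npr3 in endothelium and endocardium and Npr2 in fibroblasts and smooth muscle. Of 12 endothelial markers, 2 were called higher and 3 lower at P7 than at E18.5, with summed FPKM of 613 and 344 at E18.5 and 598 and 504 at P7. The 5 endocardial markers other than Npr3 summed to 60.6 in each E18.5 library and to 104 to 176 later, with 1 called higher at P7. Between the E18.5 and P7 means, Plvap (39.6 to 73.4 FPKM) and Cdh11 (7.06 to 33.8) rose. Vwf (5.88 to 2.76), Nfatc1 (7.39 to 5.25) and Hapln1 (0.710 to 0.127) fell, and the median log2 difference of the 5 was -0.42. The endocardial markers thus did not move together, which limits values taken relative to their mean. Relative to the endocardial mean, Npr1 stood at 0.15 and -0.05 at E18.5 and between -1.91 and -1.23 after birth, and Npr3 at -0.60 and -0.44 against -1.70 to -1.28. Relative to the endothelial mean, Npr1 was -2.23 and -1.79 at E18.5 and -2.85 to -2.50 after birth, without overlap, whereas Npr3 was -2.98 and -2.18 and then -3.08 to -2.22, with overlap. Npr2 relative to the fibroblast mean was -2.31 and -1.84 at E18.5 and -3.39 and -3.71 at P7, so Npr2 was lower relative to them at P7. Relative to the smooth muscle and pericyte mean it was -0.82 and -0.30 at E18.5 and -0.52 and -0.69 at P7, which overlapped. Of 10 smooth muscle and pericyte markers, 5 were called higher and 3 lower at P7 than at E18.5.

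Across the 8 mouse libraries Nppb and Corin varied most alike (Pearson r = 0.965 of log2(FPKM + 1)), followed by Nppa and Nppb (0.900). Npr2 ran opposite to the other 5 genes (r from -0.685 to -0.446), and Nppa and Npr1 were nearly unrelated (0.0185). Libraries of a stage share its composition, so these values describe the 8 libraries only. Among 8940 genes compared, those closest to Nppa were Chpt1 (r = 0.977), 2810004N23Rik (0.964) and Rab20 (0.962). The closest to Nppb were Ndufaf5 (0.986), Hist3h2a (0.982) and Mrps23 (0.981), and those closest to Corin were Macrod1 (0.998), Ndufb6 (0.997) and Akirin1 (0.997). Npr1 was nearest to Tle1 (0.994), Ppm1d (0.972) and 5031425E22Rik (0.968), Npr2 to Spns1 (0.986), Tns2 (0.977) and Rilpl2 (0.972), and Npr3 to Gm26532 (0.970), Usp10 (0.944) and Dxo (0.944).

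Of 6 other genes that make, activate or break down the peptides, 5 were found and 3 passed the filter, and 1 of these was called. Furin, a protease that cleaves the BNP precursor, differed by -0.05 between P7 and E18.5 (limma adjusted p = 0.784). Pcsk6, which activates corin, was called higher (1.41 and 1.69 FPKM at E18.5, 5.67 and 7.31 at P7, log2 difference 1.55, adjusted p = 0.000183). Ide, a peptide-degrading enzyme, differed by -0.66, under the fold limit (0.00339).

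In the wider cyclic GMP pathway, which includes the nitric oxide receptor, 16 of 17 listed genes were tested. At P7, 6 were called higher and 2 lower than at E18.5, beside 15.4% and 12.3% of all genes. Their median log2 difference was 0.62, beside 0.14 over all genes. Pde1a, a phosphodiesterase, had 1.45 and 0.711 FPKM at E18.5 and 17.8 and 27.1 at P7 (log2 difference 3.49, limma adjusted p = 3.54e-05). Gucy1a1 (2.101) and Gucy1b1 (1.51), the subunits of the nitric oxide receptor, and the potassium channel subunit Kcnmb1 (1.84) were also called higher, as were Prkg2 (1.36) and Mrvi1 (1.09). Rgs2, a regulator of G protein signalling, fell by 2.90 and Pde1c by 2.13. Prkg1, the main cyclic GMP dependent kinase of heart and vessels, differed by 0.03 (adjusted p = 0.901) and Pde5a by 0.98, just under the fold limit (0.00452).

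Within a list of 10 other genes of the fetal and stress program, 8 were called lower at P7 than at E18.5 and 1 higher, with a median log2 difference of -2.65. Among all genes, 12.3% were called lower and 15.4% higher, and the median was 0.14. The 12 cardiomyocyte markers had a lower median than this list, at -4.02. Myh7, the fetal myosin heavy chain of the mouse ventricle, fell by 7.98, more than either peptide gene. Acta2, the smooth muscle actin, was called higher (1.59), and Ankrd1, a stress-responsive muscle protein, differed by -0.35 (limma adjusted p = 0.170). At P1 the list held 3 genes called lower and 1 higher, and at P3 6 called lower. The shares of all genes were 6.06% lower and 10.1% higher at P1, and 8.88% lower at P3.

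Factors that bind natriuretic peptide promoters were likewise listed, 17 in all. At P7, 7 were called lower than at E18.5, among them Nkx2-5 (93.1 and 109 FPKM at E18.5, 13.6 and 5.23 at P7), Mef2c, Mef2d and Tbx5. Fos, Jun and Atf3, immediate early genes, were called lower too, with Fos at 160 and 182 FPKM at E18.5 and 4.81 to 10.4 in every later library. Hif1a was the only factor called higher (1.53). Beside these counts, 12.3% of all genes were called lower and 15.4% higher at P7. Gata4, Tbx20 and Rest were not called, with log2 differences of -0.57 (limma adjusted p = 0.213), 0.04 (0.845) and -0.17 (0.419).

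Genes beside the peptide pair did not share their change as a block. Among genes within 100 kb, Mfn2, a mitochondrial fusion protein, fell by 1.90 from E18.5 to P7, while Plod1 (0.77), Agtrap (0.47), 2510039O18Rik (0.34) and Clcn6 (-0.64) were not called. The antisense gene Gm13054 overlaps Nppa on the opposite strand and fell by 1.27 (limma adjusted p = 0.0374). Whether reads were assigned by strand is not given in the sources used here, so reads of Nppa and of Gm13054 may not be fully separated.

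Open chromatin was read from the peak list of each ATAC-seq library, with a promoter peak defined as one within 2.5 kb of an annotated transcript start. The lists differed in length, with 13149 and 14910 peaks at E18.5, 29281 and 19753 in the P1 pair, 95257 and 52040 in the P3 pair and 49113 and 35898 in the P7 pair. The share of all tested genes with a promoter peak was 67.1% and 62.4% for E18.5, 69.2% and 43.0% for P1, 91.7% and 87.7% for P3 and 86.5% and 85.5% for P7. Absence of a peak was therefore more likely at E18.5 and P1 for any gene, and no test of peak height between stages was made.

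The Nppb promoter had a peak in 7 of 8 libraries, all but P1 replicate 2. Its fold enrichment over background was 5.25 and 5.29 at E18.5, 6.85 in the remaining P1 library, 9.78 and 7.48 in the P3 pair and 5.85 and 3.49 in the P7 pair. The summits lay between -197 and -51 bases from the start, inside the sequence printed above, and the stretch common to all 7 was chr4:147985618-147985806. By fold enrichment the highest peaks were at P3, where Nppb stood at 132 and 40.9 FPKM, and not at E18.5. Fold enrichment was compared without scaling between libraries. The region beyond the Npr1 3′ end was likewise higher at P3 (11.0 and 10.3) than at E18.5 (5.71 and 5.93). By score the Nppb peak ranked 8230 and 7143 at E18.5, 5866 in P1 replicate 1 and 8058 and 18391 at P3. Peak height and transcript level therefore cannot be compared across stages from these values. In lists cut to the same length of 13149 peaks, 4 of 8 libraries kept the Nppb peak, none of them at P7. These were both E18.5 libraries, P1 replicate 1 and P3 replicate 1.

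Nppa, in contrast, had a promoter peak in only 2 of 8 libraries. It reached a fold enrichment of 4.11 in E18.5 replicate 1, where it ranked 12689 of 13149 by score, and 2.96 in P3 replicate 2. Both peaks lay upstream of the start, with summits at -360 and -522. P1, with the highest Nppa transcript level, had none in either library.

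The other 4 genes had promoter peaks mainly in the longer lists. Npr2 had one in 6 libraries, Npr1 and Npr3 in 5 each, and Corin in 4. Npr3 peaks were present in both P3 and both P7 libraries and, at an internal start, in P1 replicate 2. The Corin peaks farthest inside the window had summits 2330 to 2439 bases from the start. For Npr1 a region beyond the 3′ end of the gene, chr3:90446328-90447350, was called in all 8 libraries with fold enrichments of 3.98 to 11.0. In 6 of them its peak lay 4431 to 4876 bases from the start of the short 3′ transcript, the peaks nearest outside the 2.5 kb window, and far from the full-length start.

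Within 50 kb of Nppb on either side, a span that includes Nppa, peaks of the 8 libraries merged into 13 regions, of which 5 were seen in a single library and 3 in 4 or more. A region 21.9 kb before the Nppb start, at chr4:147963712-147964108, was called in both E18.5 libraries (fold enrichment 4.79 and 4.41), in 1 P1 library (4.21) and in 1 P7 library (3.36). Another, 19.9 kb before it at chr4:147965717-147966042, was called only in both P1 libraries (5.70 and 5.18). Neither was called in the P3 libraries, which had the most peaks overall. Between the 2 genes, the only region apart from the promoters, centred 8162 bases past the Nppb start, was called in 1 P3 library (5.26).

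**Figure D4:**
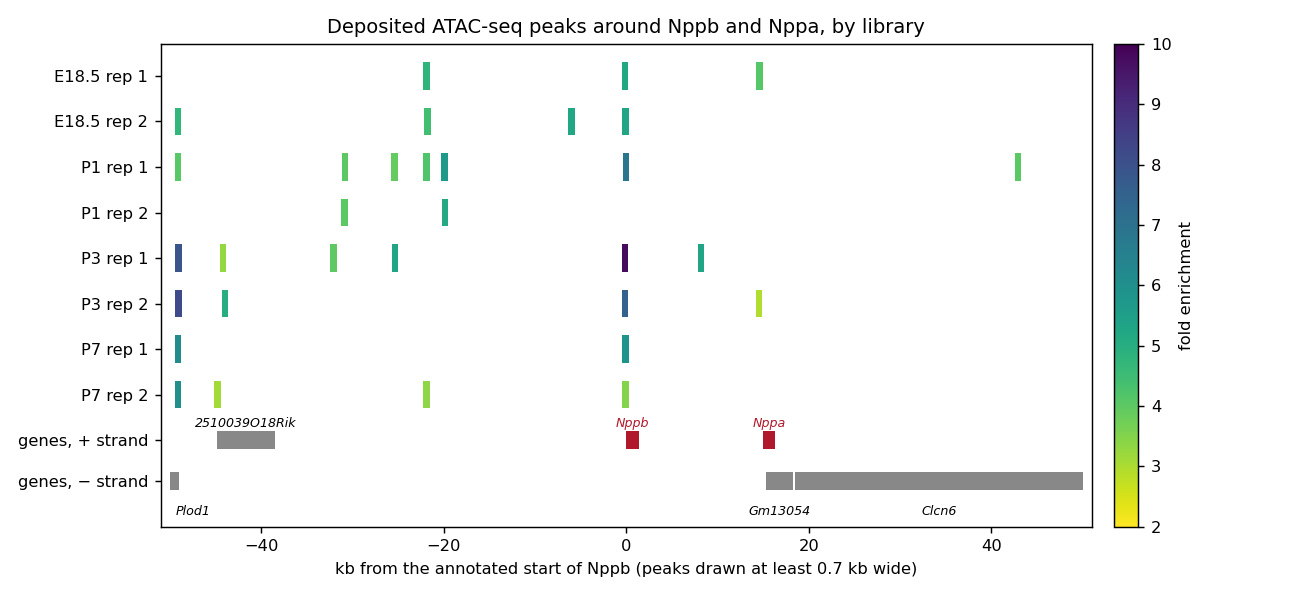
Peaks called in each ATAC-seq library around Nppb and Nppa, by distance in kb from the Nppb start, to 50 kb on either side. Each row is a library, bar colour gives fold enrichment, and annotated genes are drawn below by strand. A peak at the Nppb start appears in 7 of 8 rows, and at the Nppa start in 2.

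In cultured rat cardiomyocytes the question was whether TSA changes these genes, and 0 of 6 were called in either direction by limma or limma-voom, with 0 at an unadjusted p under 0.05 against 19.8% of all genes. Of all rat genes, 1.81% were called higher and 0.316% lower. The groups overlapped for each of the 6 genes, whereas 27.2% of all genes did not overlap. Nppb had an FPKM of 145, 90.4 and 1368 with DMSO and 201, 184 and 2287 with TSA. Nppa had 1161, 1068 and 7396 with DMSO and 1182, 1111 and 10952 with TSA. In both groups the library numbered 3 held several times more of both peptide transcripts than the others.

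For both peptide genes, number 3 differed from numbers 1 and 2 by more than TSA did from DMSO within any number. On the log2 scale, Nppb was 3.57 higher in number 3 than in the mean of the others with DMSO and 3.57 with TSA, and Nppa 2.73 and 3.26. Of 13625 genes, 142 lay over 1 log2 unit away in the same direction in both groups, and by the smaller of both rises Nppb took place 1 and Nppa place 3. Nppa was the most abundant gene of DMSO replicate 3 and stood at place 2 in TSA replicate 3. Acta1, the skeletal actin of the fetal program, was also high there, at 389 and 923 FPKM against 59.5 to 115 in the others. Smooth muscle and pericyte markers summed to 2411 and 1643 FPKM there against 678 to 994, and the mean log2(FPKM + 1) of fibroblast markers was 7.13 and 6.97 against 7.52 to 7.86. As a sum, fibroblast markers did not stand apart in DMSO replicate 3, at 7144.5 FPKM beside 7071 and 7711 in the other DMSO libraries. In TSA replicate 3 the sum was 4062 beside 6620 and 6268. What sets these cultures apart was not tested.

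The study states no pairing of the rat libraries, so pairs by number are an assumption here. Within each number TSA exceeded DMSO for Nppb. The TSA to DMSO ratios of Nppb were 1.39, 2.03 and 1.67 for numbers 1, 2 and 3, and those of Nppa 1.02, 1.04 and 1.48. The Nppb log2 difference was 0.74, with an SE of 1.296 and a limma adjusted p of 0.810 without pairing. With the replicate number as a block the SE was 0.13 and the adjusted p 0.0498, and the difference stayed under the fold limit. Leaving out both libraries numbered 3 gave 0.74 with an adjusted p of 0.0701, while leaving out TSA replicate 3 alone turned the unpaired difference to -0.45 for Nppb and -0.87 for Nppa. An exact two-sided permutation test of the 6 libraries gave p = 0.5 for Nppb and 0.6 for Nppa, where the smallest possible is 0.1. The exact paired test gave 0.25 for both genes, the smallest it can give, so neither exact test could reach 0.05.

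Corin had 6.11, 3.31 and 1.07 FPKM with DMSO and 4.80, 7.16 and 7.00 with TSA. Its ratios of 0.786, 2.17 and 6.52 did not share a direction (log2 difference 0.86, SE 0.43, limma adjusted p = 0.333). The 6.52 came from the low DMSO replicate 3, and without both libraries numbered 3 the difference was 0.31.

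The receptors lay close together. Npr1 had 6.22, 7.20 and 3.03 FPKM with DMSO and 5.84, 6.92 and 5.29 with TSA, a log2 difference of 0.17 (limma adjusted p = 0.788). Npr2 had 22.7, 21.0 and 15.5 with DMSO and 21.9, 19.96 and 14.4 with TSA, with ratios of 0.967, 0.952 and 0.930 (log2 difference -0.07, SE 0.20, adjusted p = 0.887). Npr3 had 6.11, 4.73 and 4.27 with DMSO and 5.68, 5.06 and 2.503 with TSA (-0.20, adjusted p = 0.741). As in postnatal mouse cells, Npr2 exceeded Npr1 in every rat library, by 2.72 to 5.10 times in FPKM.

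Around these genes, 0 of 13 tested cyclic GMP genes and 0 of 17 factors were called after TSA by limma or limma-voom, with 2 of each at an unadjusted p under 0.05. By limma, 1.81% of all genes were called higher and 0.316% lower, and 19.8% had an unadjusted p under 0.05. Lists of this size would hold few calls at those shares, so nothing is read from these counts. In the fetal program 1 of 10 was called, Myl7, the atrial myosin light chain, with 97.1, 92.5 and 46.7 FPKM in DMSO and 227, 202 and 189 in TSA (log2 difference 1.44, limma adjusted p = 0.0399). Cardiomyocyte markers summed to 9962 to 15139 FPKM over the 6 libraries, and 0 of 11 were called by either tool, with 2 at an unadjusted p under 0.05. Fibroblast markers summed to 7071 to 7711 with DMSO and 4062 to 6620 with TSA, and their part in the values above was not tested.

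**Figure D5:**
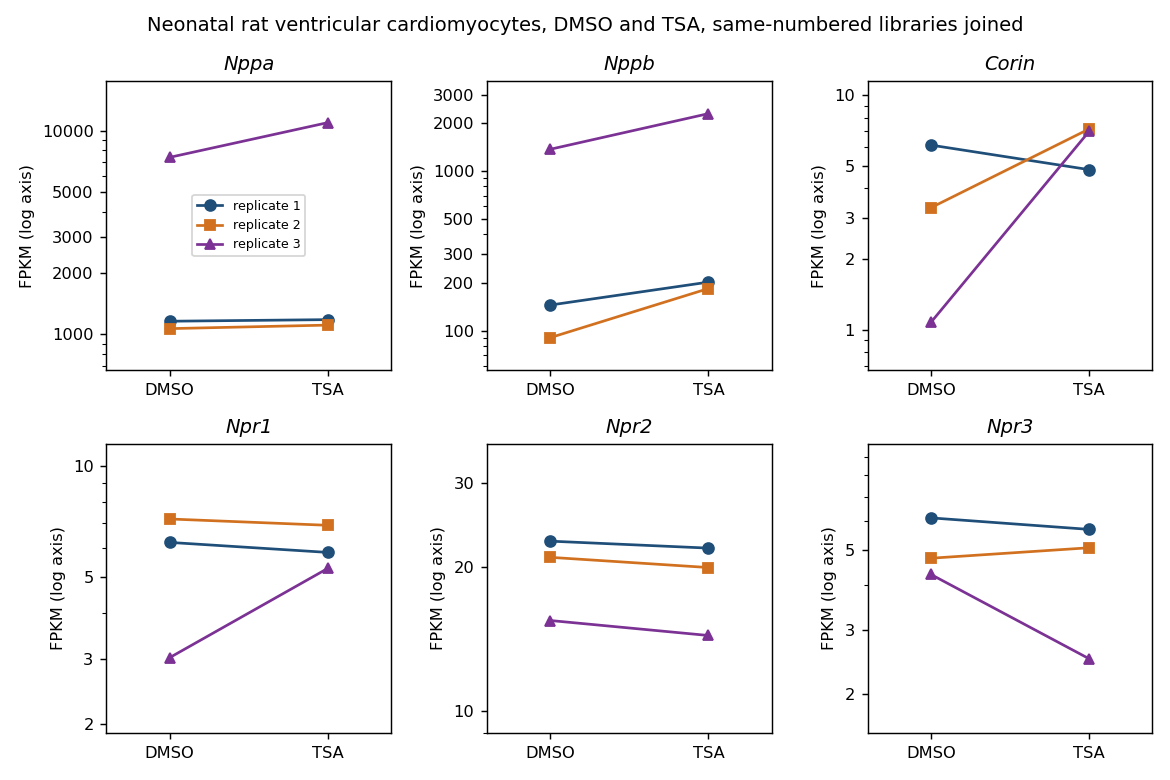
FPKM (log axis) of the 6 genes in the rat libraries treated with DMSO or 100 nM TSA. Lines join libraries with the same number. Number 3 stands apart for Nppa and Nppb in both groups, at 7396 and 10952 and at 1368 and 2287 FPKM, and the groups overlap for each gene.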

How the data were processed

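RNA-seq values were FPKM and TPM per transcript with per-base coverage, which the authors deposited after alignment with HISAT2 2.1.0 to mm10 (GENCODE annotation) or Rnor_6.0 and assembly with StringTie (1.3.5 for mouse and 1.3.4d for rat, per the file headers). The authors tested read counts with edgeR, which were not used here. ATAC-seq peaks were deposited per library with a score, a fold enrichment ratio over background and −log10 p- and q-values, all computed by the authors with MACS2 after alignment with Bowtie2, duplicate removal with Picard and removal of blacklisted regions. Rat cells were collected after 48 h, per the study's methods. Strand handling in quantification is not given in the sources used here.

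FPKM was summed over the transcripts of each gene, and log2(FPKM + 1) of genes that reached 1 FPKM in 2 or more mouse libraries, or in 3 or more rat libraries, was tested with limma 3.58.1 (R 4.3.3). All 8 mouse libraries entered a single fit and the 6 rat libraries another. P-values were adjusted by the Benjamini-Hochberg method over all genes tested, and a call needed an adjusted p below 0.05 and a log2 difference of at least 1. The scripts were tested on simulated data. Reads per library were estimated from the deposited coverage and transcript lengths at 150 bases per read. Named genes were the 6 members, the 3 genes most alike to each, genes within 100 kb of Nppb and Nppa, and members of the lists; 1 item that this rule covers is not reported here. The members and lists were chosen with earlier results of these data known.

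Same-numbered rat libraries deviated together from their group means (r = 0.224, 0.194 and 0.346), so numbers were treated as pairs in the replicate block and the paired exact test. The main rat fit was unpaired. Alternatives were another pseudocount, other filters, TPM, median-of-ratios scaling, limma-voom, a replicate block, each library left out, and other peak windows and thresholds.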

Additional observations from a re-analysis of the deposited data

How the results depend on the processing

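Of 502 values of single genes recomputed under alternatives, 465 kept direction and side of the threshold. The number of members called lower at P1 than at E18.5 was 1, and became 0 with a mean FPKM of at least 5 (Npr1 then fell below the filter), 2 with median-of-ratios scaling and 2 with limma-voom, where Corin was added (-1.06 and -1.05). Leaving out 1 library gave 1 to 2, Corin being added without E18.5 replicate 1 (-1.20) or P1 replicate 2 (-1.25). At P3 the 2 became 1 without a filter (Nppb, adjusted p = 0.0569), and 1 to 4 on leaving out libraries: Nppb was lost without E18.5 replicate 2 or P3 replicate 2 (-1.46), Npr2 was called higher without E18.5 replicate 2 or P3 replicate 1, and Nppa was called without P3 replicate 1 (-1.51). At P7 the 4 ranged from 3 to 4: Nppa was lost without E18.5 replicate 2 (adjusted p = 0.0665) and Npr1 without E18.5 replicate 1 (-0.89), with TPM (-0.93) and with limma-voom (-0.98). Npr2 was called higher at P7 with TPM (1.05) and limma-voom (1.09), and at P3 with a pseudocount of 0.1 (1.04), TPM (1.23) and limma-voom. TPM scaling moved the median gene from 0.15 to 0.38 at P1. For P7 against P1 the 3 ranged from 2 to 3, with Nppb lost without P1 replicate 2 or P7 replicate 2, and also without a filter (adjusted p = 0.0595). For P7 against P3 the 0 became 1, Corin, with a pseudocount of 0.1 (-2.26), with TPM (-1.73) and without P7 replicate 1 (-1.67), range 0 to 1.

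Npr3 between P7 and P1 turned to 0.0040 with limma-voom, and ran from -0.26 to 0.072 as P1 replicates were left out. In rat, leaving out 1 library at a time moved Nppa from -0.87 (without TSA replicate 3) to 1.13 (without DMSO replicate 3), with -0.21 and -0.27 without DMSO replicates 1 and 2. Nppb ran from -0.45 (without TSA replicate 3) to 1.93 (without DMSO replicate 3), with -0.02 without DMSO replicate 2. Npr1 ran from -0.14 (without DMSO replicate 3) to 0.37, Npr2 from -0.23 to 0.10 (without TSA replicate 3), with 0.03 without DMSO replicate 1, and Npr3 from -0.38 to 0.087 (without TSA replicate 3). Npr1 became -0.064 when both libraries numbered 3 were left out, an alternative chosen after seeing the data. The replicate block left 0 rat members called. In mouse the correlations of same-numbered libraries were of mixed sign (r from -0.096 to 0.171) and numbers were not treated as pairs. The block changed no call of a mouse member.

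Promoter peaks depended on the threshold. At a −log10 q of at least 5, Nppb kept its peak in 6 libraries, Npr2 and Npr3 in 3, Npr1 in 1 and Corin and Nppa in 0. In lists of equal length these numbers were 4, 1, 1, 1, 0 and 1 for Nppb, Npr2, Npr3, Npr1, Corin and Nppa. A window of 1 kb gave 7, 4, 4, 5, 3 and 2, and of 5 kb 7, 6, 5, 6, 4 and 2. Each stage had 2 libraries, and Corin at P7 stood near the lowest values. Among mouse differences from E18.5 that were not called, some had an adjusted p under 0.05 and stayed under the fold limit. These were Corin at P1, Npr1 and Npr2 at P3, and Npr2 and Npr3 at P7.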
